A study of Mus musculus with 6 samples.

Results

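Gdf6, BMP and activin signalling genes were followed in lung mesenchymal stromal cells (LMSCs) of tumor-bearing mice through 10 genes of the 34745 in the expression table. The 10 were Gdf6, Bmp2, Bmp4 and Inhba, which encode secreted ligands, Fst and Grem1, which encode secreted antagonists, Bmpr1a, which encodes a receptor, and Id1, Id2 and Id3, whose transcription BMP signals induce. Each was found in the table by its gene name. The genes were chosen with their differences between the stages already known, so their stage values are given as a description, without a test.

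The cells came from the MMTV-PyMT strain, whose mouse mammary tumor virus promoter drives polyoma middle T, an oncogene, in the mammary epithelium, so that mammary tumors form and spread to the lung. A-LMSCs were from the adenoma stage (6 to 7 weeks of age by the labels), PM-LMSCs from the pre-metastatic stage (9 to 10 weeks) and M-LMSCs from the metastatic stage (13 to 14 weeks), with 2 RNA-seq libraries each. The study's methods give somewhat later ages for the first stages. All 3 groups carried the transgene, and the labels name no treatment. No library of wild-type LMSCs was analysed here, and stage and age cannot be told apart. The cells were adherent lung cells, isolated after enzyme digestion and depletion of CD45+ cells and cultured in serum-containing medium to passage 3, so levels are those of cultured cells. The third library per stage that the study describes was not analysed here. The study describes the libraries of a stage as coming from separate mice, while the labels give only a replicate number.

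Bone morphogenetic proteins (BMPs), growth and differentiation factors (GDFs) and activins are secreted dimers of the TGF-β superfamily. They bring type I and type II receptor kinases together on the cell surface. The kinases phosphorylate SMAD proteins, SMAD1, SMAD5 and SMAD9 for most BMPs and SMAD2 and SMAD3 for activins, which enter the nucleus with SMAD4 and regulate transcription. Antagonists bind the ligands outside the cell, and inhibitory SMADs act inside it. In the lung the pathway is known for its part in branching of the developing airways and in the control of fibroblasts and vessels.

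Promoter sequence is printed for the ligand and antagonist genes whose FPKM lay furthest apart, in absolute terms, between the libraries of a stage (Inhba and Grem1), for Bmp4, and for the Id2 and Bmpr1a stretches that lie outside annotated exons. RefSeq (GRCm38.p6) gave a promoter for 6 of the 10 genes (Bmp4, Inhba, Grem1, Bmpr1a, Id2 and Id3). The sequences read 5′ to 3′ on the gene's own strand and end at or before the base ahead of the RefSeq gene start. GENCODE M21, which gives the gene positions printed here, also lists transcripts of Id2, Bmpr1a and Id3 that start further upstream, so the windows of these genes lie inside the GENCODE genes. All 250 bases of the Id3 window are in annotated exons, and those of Id2 and Bmpr1a are in part. Capitals mark GGCGCC, letters that BMP-activated SMADs can bind, and CAGAC or its reverse complement, the core that SMAD3 and SMAD4 can bind. The motifs do not overlap each other.
Inhba, chr13:16011601-16011850, plus strand: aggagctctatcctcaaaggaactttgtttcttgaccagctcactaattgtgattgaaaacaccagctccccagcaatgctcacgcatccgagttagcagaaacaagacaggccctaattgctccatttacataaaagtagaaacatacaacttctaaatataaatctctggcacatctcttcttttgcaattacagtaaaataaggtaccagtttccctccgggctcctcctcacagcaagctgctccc
Grem1, chr2:113758649-113758898, minus strand: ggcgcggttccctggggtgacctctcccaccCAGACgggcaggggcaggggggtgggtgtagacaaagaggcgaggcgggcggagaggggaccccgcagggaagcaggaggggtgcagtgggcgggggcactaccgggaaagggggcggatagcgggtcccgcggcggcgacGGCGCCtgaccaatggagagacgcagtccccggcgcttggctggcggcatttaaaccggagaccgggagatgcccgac
Bmp4, chr14:46390670-46390919, minus strand: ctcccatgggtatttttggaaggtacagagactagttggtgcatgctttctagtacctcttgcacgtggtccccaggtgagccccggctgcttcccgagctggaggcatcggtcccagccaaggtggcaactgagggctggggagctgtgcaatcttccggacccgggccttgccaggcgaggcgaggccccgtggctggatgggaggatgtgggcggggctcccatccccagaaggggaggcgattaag
Id2, chr12:25096254-25096342, minus strand: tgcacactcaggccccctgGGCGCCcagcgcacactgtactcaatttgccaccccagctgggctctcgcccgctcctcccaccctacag
Bmpr1a, chr14:34502688-34502796, minus strand: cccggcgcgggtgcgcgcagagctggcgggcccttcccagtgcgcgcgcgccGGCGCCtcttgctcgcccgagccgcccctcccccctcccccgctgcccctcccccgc

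Searched on both strands over the full 250 bases before the RefSeq gene start, GGCGCC was found once each in the Grem1, Id2 and Bmpr1a promoters, beside 9.59% of 32851 RefSeq promoters of the same length that held it at least once. CAGAC was found once in the Grem1 promoter and in 2 places in the Id3 window, which is exonic in GENCODE, beside 42.2% of all promoters. The Inhba and Bmp4 windows held neither. The E-box CANNTG stood in 3 places in the Bmp4 window and in 1 place in the Id2 window (66.2% of all promoters held at least 1). TATAAA stood once in the Inhba window (12.4%). The Inhba window had a GC content of 43.2%, the lowest of the 6, and the Bmpr1a window 78.8%, the highest.

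Values are FPKM, fragment counts divided by transcript length and library total, so that levels can be compared between genes. The spacing of low values gave a rough estimate of the depth, 14.8 to 20.8 M fragments (megafragments) per library, since the table holds no counts. The labelled cell type was checked first. All 12 mesenchymal stromal markers had a mean of at least 1 FPKM, with summed levels of 1726 to 3097 FPKM, and of the smooth muscle and pericyte markers 5 of 6 did (5556 to 6915 FPKM, mostly Acta2). Of 8 epithelial markers none reached a mean of 1 FPKM (summed 0.413 to 4.02 FPKM), and the value of Epcam was 0 as listed for 4 libraries and 0.326 and 0.473 FPKM for the M-LMSC ones. The 7 endothelial markers summed to 2.01 to 3.06 FPKM, with Kdr alone at a mean of 1 FPKM or more. Of the 9 haematopoietic markers 4 had such a mean (Lyz2, Tyrobp, Cd68 and Csf1r), and Lyz2 made up most of their sum. Tyrobp was 3.13 to 13.1 FPKM, Cd68 5.48 to 12.2 FPKM and Csf1r 2.72 to 4.71 FPKM over the libraries, each highest in the M-LMSC ones. Adgre1 (2.09 and 1.52 FPKM) and Itgam (2.45 and 1.46 FPKM) were also highest there. Ptprc, which encodes CD45, was at most 0.0987 FPKM, Cd3e 0.0943 FPKM and Cd79a 0.130 FPKM. Of 9 markers of the mesothelium, the cell layer that covers the lung, 8 had a mean of at least 1 FPKM, and their sums are given beside Gdf6.

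Gdf6 was the most abundant BMP or GDF ligand RNA in every library and the gene among the 10 whose stages lay furthest apart. Gdf6 encodes a BMP-type ligand known for joint, skull and eye development, and lies at chr4:9844372-9862345 on the plus strand (GRCm38). It stood at 21.1 and 18.4 FPKM (A-LMSC), 37.5 and 35.6 FPKM (PM-LMSC) and 40.7 and 46.2 FPKM (M-LMSC). No library of an earlier stage reached any library of a later one. The means were 19.8 ± 1.91, 36.5 ± 1.38 and 43.4 ± 3.89 FPKM (SD, n = 2), which is 1.85 times the A-LMSC level at the pre-metastatic stage and 2.20 times at the metastatic stage. On the log2(FPKM + 1) scale the differences were 0.86 for PM-LMSCs and 1.10 for M-LMSCs over A-LMSCs, and 0.24 for M-LMSCs over PM-LMSCs, each with a standard error of 0.12. Both later stages are compared with the same A-LMSC libraries. In bulk RNA, more cells that make a transcript and more transcript per cell cannot be told apart.

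The summed mesothelial markers were 122.7 and 182.1 FPKM (A-LMSC), 301.6 and 424.7 FPKM (PM-LMSC) and 203.5 and 506.7 FPKM (M-LMSC), so both later stages lay above both A-LMSC libraries for this sum as for Gdf6. The defining markers Upk1b (63.8 to 256.9 FPKM), Upk3b (15.6 to 96.7 FPKM) and Msln (8.87 to 48.2 FPKM) were present in all 6 libraries, and Upk1b was the largest part of the sum in each. Msln in M-LMSC replicate 1 (12.6 FPKM) was no higher than in A-LMSC replicate 2 (12.7 FPKM), and Krt19 ran the other way, at 13.8 and 17.3 FPKM (A-LMSC), 8.09 and 9.28 FPKM (PM-LMSC) and 4.92 and 4.49 FPKM (M-LMSC). Unlike Gdf6, the mesothelial sum was lower in M-LMSC replicate 1 than in both PM-LMSC libraries. The part of mesothelial cells in the Gdf6 values was not tested.

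**Figure D1:**
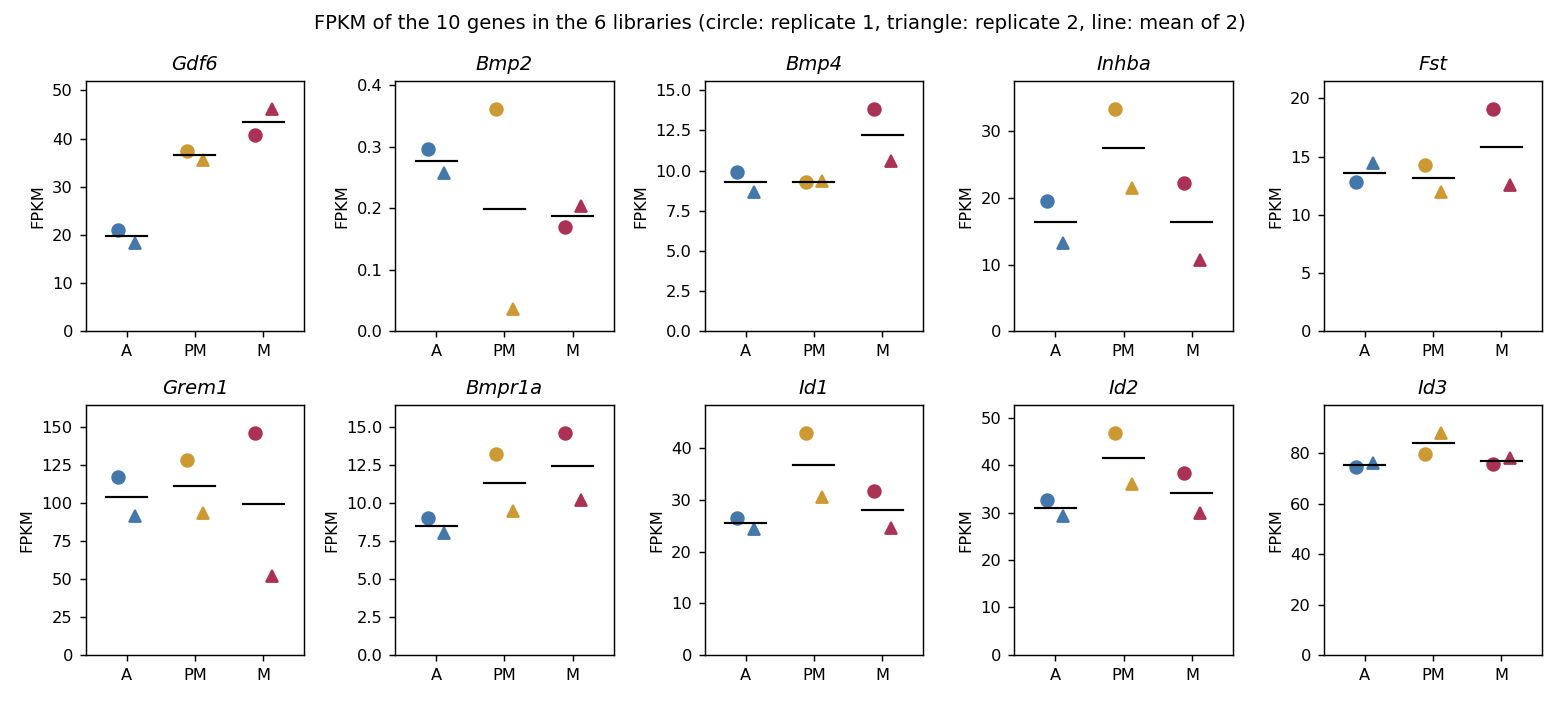
FPKM of each of the 10 genes in the 6 libraries, by stage (A, PM and M on the horizontal axis, FPKM on the vertical axis, circles for replicate 1, triangles for replicate 2, lines for the mean of 2). Gdf6 is at 18.4 to 21.1 FPKM in A-LMSCs and at 35.6 to 46.2 FPKM in the 4 later libraries, whereas the 2 M-LMSC libraries of Grem1 lie at 147 and 52.2 FPKM.

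Among the BMP and GDF ligand genes, 22 were in the table, and 5 of them carried nearly all of the RNA. Their summed level was 58.5 and 50.4 FPKM (A-LMSC), 71.6 and 70.9 FPKM (PM-LMSC) and 79.7 and 86.8 FPKM (M-LMSC). Gdf6 made up 36.1% and 36.6% of that sum in A-LMSCs, 52.4% and 50.2% in PM-LMSCs and 51.0% and 53.2% in M-LMSCs. The next ligands by mean level over the 6 libraries were Bmp4 (10.3 FPKM), Gdf15 (9.62 FPKM), Gdf11 (9.45 FPKM) and Bmp6 (4.80 FPKM). The sixth, Bmp8a, averaged 0.558 FPKM.

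**Figure D2:**
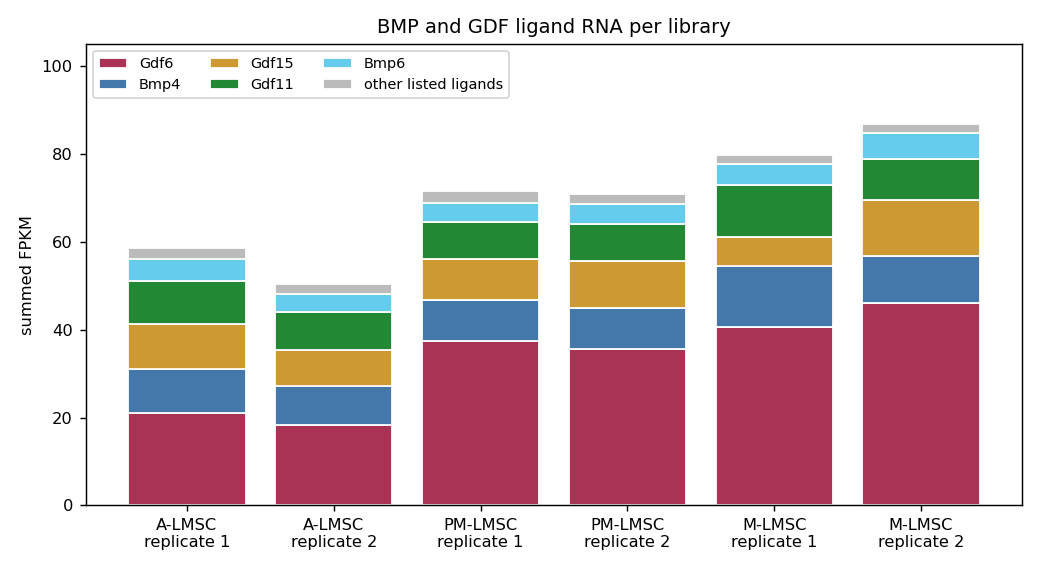
Summed FPKM of 22 BMP and GDF ligand genes in each library (1 bar per library, vertical axis in FPKM from 0, colors for the 5 most abundant ligands and grey for the rest). The Gdf6 segment is 18.4 to 21.1 FPKM in the A-LMSC libraries and 35.6 to 46.2 FPKM in the others.

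Bmp4, a ligand of lung and limb development (chr14:46383520-46390669, minus strand), had its highest values in M-LMSCs. It stood at 9.93 and 8.67 FPKM (A-LMSC), 9.27 and 9.32 FPKM (PM-LMSC) and 13.8 and 10.6 FPKM (M-LMSC). Both M-LMSC libraries lay above the 4 others, the second of them close to A-LMSC replicate 1. The log2 difference was 0.35 for M-LMSCs over A-LMSCs and 0.00 for PM-LMSCs over A-LMSCs (standard error 0.15). Without M-LMSC replicate 1 the difference over A-LMSCs was 0.18, and without replicate 2 it was 0.53. The summed haematopoietic markers were also highest in M-LMSCs, at 394.6 and 281.7 FPKM against 72.3 to 163.1 FPKM in the other libraries, and their part in the Bmp4 values was not tested. Bmp4 shares 89 exon bases with Gm15217 on the opposite strand, and whether reads were counted by strand is not given in the sources used here.

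Bmp2, a ligand of bone and heart formation (chr2:133552159-133562885, plus strand), was close to absent, at 0.297 and 0.257 FPKM (A-LMSC), 0.362 and 0.0354 FPKM (PM-LMSC) and 0.170 and 0.204 FPKM (M-LMSC). At the estimated depth these values correspond to roughly 2 to 22 fragments per library, although counts could not be recovered from the values. Bmp2 was the only one of the 10 whose mean was under 1 FPKM, and it was left out of the fit across genes. Values this low do not settle whether Bmp2 differed between stages.

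Inhba encodes the βA subunit, whose homodimer is activin A, and lies at chr13:16011851-16031621 on the plus strand; its promoter is the first printed above. Its level was 19.5 and 13.3 FPKM (A-LMSC), 33.4 and 21.5 FPKM (PM-LMSC) and 22.2 and 10.7 FPKM (M-LMSC). Both PM-LMSC libraries lay above both A-LMSC libraries, while M-LMSCs overlapped both other stages. The PM-LMSC mean was 1.67 times that of A-LMSCs and also 1.67 times that of M-LMSCs. On the log2 scale the differences were 0.70 for PM-LMSCs over A-LMSCs and -0.76 for M-LMSCs over PM-LMSCs, with a standard error of 0.36 that was 0.13 when the replicate number was a block in the fit. With 1 library left out they ranged from 0.40 (without PM-LMSC replicate 1) to 1.00 (without PM-LMSC replicate 2) and from -1.25 (without M-LMSC replicate 1) to -0.26 (without M-LMSC replicate 2). The difference of M-LMSCs from A-LMSCs was -0.06 and took its sign from 1 library, being -0.55 without M-LMSC replicate 1 and 0.44 without M-LMSC replicate 2.

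Fst encodes follistatin, which binds activins nearly irreversibly, and lies at chr13:114452290-114458951 on the minus strand. It stood at 12.8 and 14.4 FPKM (A-LMSC), 14.3 and 12.0 FPKM (PM-LMSC) and 19.1 and 12.6 FPKM (M-LMSC). The 3 stages overlapped, and the largest log2 difference was 0.23 (standard error 0.20), of M-LMSCs over PM-LMSCs, which was -0.05 without M-LMSC replicate 1. The ratio of Inhba to Fst was 1.53 and 0.920 (A-LMSC), 2.34 and 1.80 (PM-LMSC) and 1.16 and 0.854 (M-LMSC), so both PM-LMSC libraries were above the 4 others. Fst shares 115 exon bases with the antisense gene Gm47040.

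Grem1 encodes gremlin 1, an antagonist that binds BMP2 and BMP4, and lies at chr2:113746164-113758646 on the minus strand. It was the most abundant of the 10 on average and the one whose FPKM varied most, in absolute terms, within a stage. Its level was 116.9 and 91.6 FPKM (A-LMSC), 128.6 and 93.4 FPKM (PM-LMSC) and 146.5 and 52.2 FPKM (M-LMSC). The highest and the lowest of the 6 values were thus both from M-LMSCs, and the stage means of 104.3 ± 17.9, 111.0 ± 24.8 and 99.3 ± 66.7 FPKM (SD, n = 2) lay within that spread. The log2 difference of M-LMSCs from A-LMSCs was -0.24 (standard error 0.45), being -0.97 without M-LMSC replicate 1 and 0.50 without M-LMSC replicate 2. Grem1 RNA was 11.8 and 10.6 times the Bmp4 RNA in A-LMSCs, 13.9 and 10.0 times in PM-LMSCs and 10.6 and 4.92 times in M-LMSCs. Its ratio to Gdf6 was 5.54 and 4.98 (A-LMSC), 3.43 and 2.63 (PM-LMSC) and 3.60 and 1.13 (M-LMSC), so that all 4 later libraries were below both A-LMSC libraries.

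**Figure D3:**
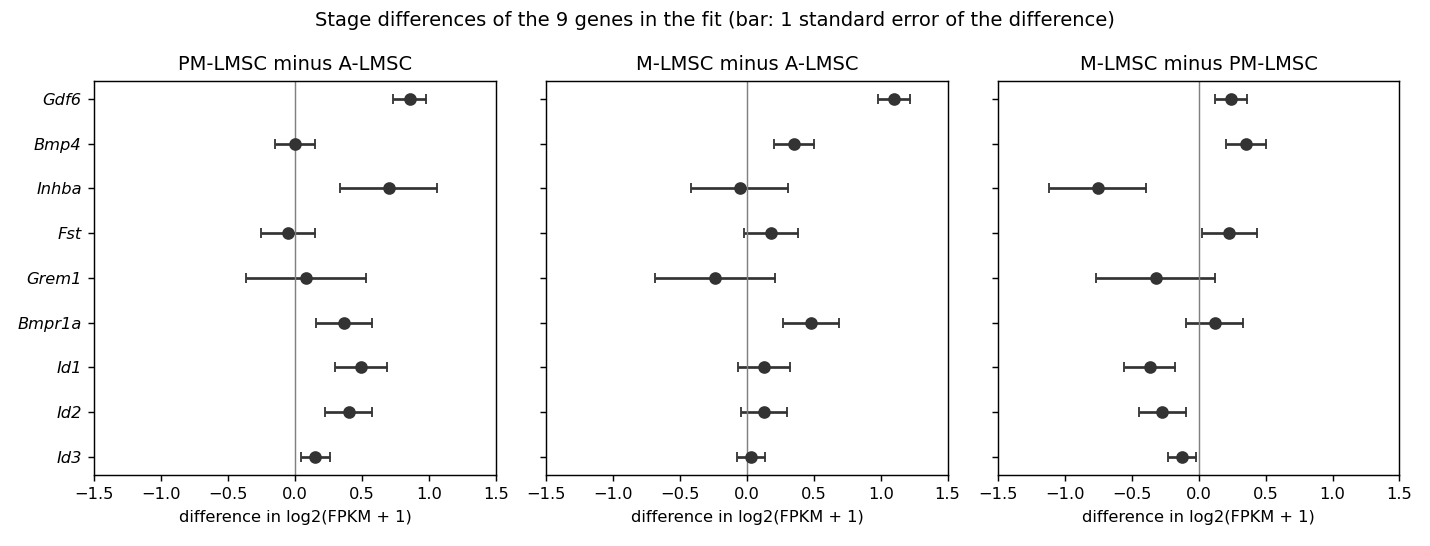
Differences between stages in log2(FPKM + 1) for the 9 genes in the fit (1 panel per pair of stages, points for the difference, bars for 1 standard error). Gdf6 lies at 0.86 and 1.10 for PM-LMSCs and M-LMSCs over A-LMSCs with standard errors of 0.12, and the bars of Grem1 (0.45) and Inhba (0.36) are the widest.

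Bmpr1a, a type I receptor through which BMP2 and BMP4 signal (chr14:34410734-34503341, minus strand), stood at 8.99 and 8.01 FPKM (A-LMSC), 13.2 and 9.48 FPKM (PM-LMSC) and 14.6 and 10.2 FPKM (M-LMSC). All 4 later libraries were above both A-LMSC libraries, and PM-LMSCs and M-LMSCs overlapped. The log2 differences over A-LMSCs were 0.36 and 0.48 (standard error 0.21). Without the replicate 1 library of the later stage they were 0.14 and 0.24, and without its replicate 2 library 0.58 and 0.72. The antisense gene Gm17110 shares 290 exon bases with Bmpr1a, and these were the only stretch in the 10 genes that matched another gene's transcript at 95% identity or more over at least 200 bases.

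Id1, Id2 and Id3 encode helix-loop-helix proteins that lack a DNA-binding region and hold back the factors they pair with. Id1 (chr2:152736251-152737410, plus strand) was 26.5 and 24.4 FPKM (A-LMSC), 43.0 and 30.5 FPKM (PM-LMSC) and 31.7 and 24.5 FPKM (M-LMSC). Id2 (chr12:25093799-25097140, minus strand) was 32.6 and 29.3 FPKM (A-LMSC), 46.9 and 36.0 FPKM (PM-LMSC) and 38.3 and 29.9 FPKM (M-LMSC). Both had their highest library in PM-LMSC replicate 1 and were above both A-LMSC libraries in PM-LMSCs but not in M-LMSCs.

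The log2 differences of PM-LMSCs over A-LMSCs were 0.49 for Id1 (standard error 0.19) and 0.40 for Id2 (standard error 0.17), and those of M-LMSCs over A-LMSCs were 0.13 for both. Without PM-LMSC replicate 1 the first pair was 0.25 and 0.22. Id3 (chr4:136143497-136145755, plus strand) was the most even of the 10, at 74.7 and 76.3 FPKM (A-LMSC), 79.8 and 88.3 FPKM (PM-LMSC) and 75.9 and 78.2 FPKM (M-LMSC). Its differences over A-LMSCs were 0.15 in PM-LMSCs and 0.03 in M-LMSCs (standard error 0.11). The ratio of Id1 to Id3 was 0.313 to 0.539 over the libraries, highest in PM-LMSC replicate 1. Between PM-LMSCs and M-LMSCs the libraries of Id1 and of Id2 overlapped. The differences of M-LMSCs from PM-LMSCs were -0.37 for Id1 and -0.27 for Id2, and -0.13 and -0.09 without PM-LMSC replicate 1.

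Across the 6 libraries the log2 levels of Id1 and Id2 had a Pearson correlation of 0.993, and those of Inhba correlated with Id2 at 0.940 and with Id1 at 0.924. Gdf6 correlated with Id1 at 0.399, with Id2 at 0.427 and with Bmpr1a at 0.703. These are descriptions over 6 points that fall into 3 stages and share their replicate numbers. The order of the levels in A-LMSCs was Grem1, Id3, Id2, Id1, Gdf6, Inhba, Fst, Bmp4, Bmpr1a and Bmp2, with overlap between Gdf6 and Inhba, Inhba and Fst, and Bmp4 and Bmpr1a. In PM-LMSCs Id2, Id1 and Gdf6 followed Id3, each overlapping the next, and then came Inhba, Fst, Bmpr1a, Bmp4 and Bmp2, with overlap between Fst and Bmpr1a. In M-LMSCs Gdf6 came directly after Grem1 and Id3, which overlapped, and was ahead of both Id2 libraries. Id2 and Id1 overlapped there, as did each neighboring pair from Inhba through Fst and Bmpr1a to Bmp4.

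For reading these counts, the share of all 10279 tested genes whose libraries separated is given beside them. Both PM-LMSC libraries were above both A-LMSC libraries in 6 of the 10 genes (Gdf6, Inhba, Bmpr1a, Id1, Id2 and Id3) beside 19.6% of tested genes, and below in 0 beside 19.7%. Both M-LMSC libraries were above both A-LMSC libraries in 3 (Gdf6, Bmp4 and Bmpr1a) beside 27.1%, and below in 1 (Bmp2) beside 24.4%. M-LMSCs were above PM-LMSCs in 2 (Gdf6 and Bmp4) beside 17.8%, and below in 1 (Id3) beside 16.7%. The genes were selected on these contrasts, so nothing is read from the counts.

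In the fit across all genes (limma, Benjamini-Hochberg adjusted p under 0.05), 0.0389% of tested genes passed for PM-LMSCs against A-LMSCs, 0.0681% for M-LMSCs against A-LMSCs, 0.0292% for M-LMSCs against PM-LMSCs and 0.126% for both later stages together against A-LMSCs. With the replicate number as a block these shares were 0.292%, 3.92%, 0.418% and 2.05%. Of the 9 genes in the fit, Gdf6 alone was among those that passed for both later stages together, and with the block also for M-LMSCs against A-LMSCs. Without the block 0 of the 9 passed in the 3 contrasts of single stages, where limma gave an unadjusted p under 0.05 for 671 of all genes (PM-LMSCs against A-LMSCs), 1504 (M-LMSCs against A-LMSCs) and 919 (M-LMSCs against PM-LMSCs), and with the block for 1415, 2498 and 1645. The genes were chosen by these contrasts, so nothing is read from the passing of Gdf6.

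The wider pathway was listed by role from textbook knowledge, as 85 further genes in 8 lists, of which 84 were in the table and 44 had a mean of at least 1 FPKM. In limma's fit across all genes 0 of the 44 passed an adjusted p of 0.05 in any contrast. An unadjusted p under 0.05 was found for 6 of them in PM-LMSCs against A-LMSCs (beside 6.53% of all tested genes), 9 in M-LMSCs against A-LMSCs (14.6%), 6 in M-LMSCs against PM-LMSCs (8.94%) and 7 in both later stages against A-LMSCs (11.2%). With the replicate number as a block these counts were 13 (beside 13.8% of all tested genes), 14 (24.3%), 11 (16.0%) and 17 (20.8%). By sign, 24 were higher and 20 lower in PM-LMSCs, and 31 higher and 13 lower in M-LMSCs, than in A-LMSCs. Their median log2 differences were 0.02 and 0.17, beside 0.01 and 0.03 over all genes tested.

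With the block, 1 gene of the 44 passed in each of 2 contrasts, M-LMSCs against A-LMSCs (beside 3.92% of all tested genes) and both later stages against A-LMSCs (beside 2.05%). Inhbb, the βB subunit of activin B, stood at 1.31 and 0.806 FPKM (A-LMSC), 1.40 and 0.976 FPKM (PM-LMSC) and 2.37 and 1.84 FPKM (M-LMSC), and both M-LMSC libraries were above the 4 others. Its log2 difference of M-LMSCs over A-LMSCs was 0.60 (standard error 0.18, limma adjusted p = 0.216), and with the block the standard error was 0.10 and the limma adjusted p = 0.0304, with a range of 0.0304 to 0.929 over the alternatives. Pcsk6, a convertase that cleaves ligand precursors, stood at 5.96 and 6.18 FPKM (A-LMSC), 10.2 and 12.7 FPKM (PM-LMSC) and 7.78 and 12.9 FPKM (M-LMSC), all 4 later libraries above both A-LMSC libraries. Pcsk6 ranked the libraries in the same order as the summed mesothelial markers did, and the part of mesothelial cells in its values was not tested. Its difference over both later stages was 0.73 (standard error 0.19, limma adjusted p = 0.260, with the block 0.0499, range over the alternatives 0.0353 to 0.999).

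Of the other BMP and GDF ligands only 3 of 19 had a mean of at least 1 FPKM, and 2 (Nodal and Gdf2) were listed at 0 in all libraries. Gdf15, a stress-induced family member, was 10.3 and 8.20 FPKM (A-LMSC), 9.21 and 10.7 FPKM (PM-LMSC) and 6.55 and 12.7 FPKM (M-LMSC). Gdf11 was 8.51 to 11.9 FPKM and Bmp6 4.13 to 5.93 FPKM over the libraries. The stages overlapped in Gdf15 and Bmp6 except that M-LMSCs were above PM-LMSCs for Bmp6, and the log2 differences of all 3 from A-LMSCs were between -0.10 and 0.18, with medians of -0.02 (PM-LMSC) and 0.18 (M-LMSC). Inha, the inhibin α subunit that opposes activins, was 0.813 to 1.45 FPKM, and the other 2 subunit genes had means under 1 FPKM.

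Of 17 secreted antagonists and modulators 9 were tested, with median log2 differences from A-LMSCs of 0.07 (PM-LMSC) and 0.12 (M-LMSC). Fstl1, a follistatin-like matrix glycoprotein, was the most abundant, at 182.7 and 185.4 FPKM (A-LMSC), 198.9 and 198.7 FPKM (PM-LMSC) and 236.4 and 273.2 FPKM (M-LMSC). Its stages did not overlap, and M-LMSCs differed from A-LMSCs by 0.46 (standard error 0.12, limma adjusted p = 0.157). Bmper, which binds BMPs outside the cell, was 58.6 and 56.7 FPKM (A-LMSC), 49.3 and 51.1 FPKM (PM-LMSC) and 68.1 and 79.1 FPKM (M-LMSC), lowest in PM-LMSCs and highest in M-LMSCs. M-LMSCs were 0.34 over A-LMSCs (standard error 0.11, limma adjusted p = 0.255) and 0.54 over PM-LMSCs (standard error 0.11, limma adjusted p = 0.266). Nbl1, a gremlin-related antagonist, was 89.6 to 107.6 FPKM. Of the 6 ligand-processing proteases 4 were tested, 3 higher and 1 lower in each later stage, with medians of 0.31 (PM-LMSC) and 0.27 (M-LMSC). Bmp1, a procollagen proteinase that also cleaves the BMP antagonist chordin, was 92.4 and 88.5 FPKM (A-LMSC), 98.1 and 99.5 FPKM (PM-LMSC) and 110.0 and 124.5 FPKM (M-LMSC), the last above A-LMSCs in both libraries (log2 difference 0.37, standard error 0.11, limma adjusted p = 0.222). Furin was 13.1 and 12.5 FPKM (A-LMSC), 12.2 and 12.7 FPKM (PM-LMSC) and 11.8 and 7.63 FPKM (M-LMSC).

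Of the 9 other receptor genes 5 were tested, with medians of 0.19 (PM-LMSC) and 0.17 (M-LMSC). The most abundant were Acvr1 (6.50 to 8.72 FPKM), Acvrl1 (5.14 to 7.63 FPKM) and Acvr1b (3.48 to 4.29 FPKM), which encode type I receptors. Acvrl1 was below both A-LMSC libraries in both M-LMSC libraries (log2 difference -0.42, standard error 0.17, limma adjusted p = 0.330). Of 8 co-receptor and decoy genes 6 were tested (medians of -0.10 and 0.04), led by Eng (17.9 to 25.9 FPKM), Neo1 (18.3 to 27.4 FPKM) and Rgmb (13.5 to 15.9 FPKM). All 12 SMAD genes and SMAD inhibitors were tested, with median log2 differences from A-LMSCs of -0.02 (PM-LMSC) and 0.02 (M-LMSC). Ski, a corepressor of SMADs, was 47.4 and 46.4 FPKM (A-LMSC), 23.9 and 41.3 FPKM (PM-LMSC) and 39.2 and 40.1 FPKM (M-LMSC), so that at the pre-metastatic stage its lower mean rested mostly on PM-LMSC replicate 1.

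Of 12 other target genes 6 were tested, 3 higher and 3 lower in PM-LMSCs and 5 higher and 1 lower in M-LMSCs than in A-LMSCs, with medians of 0.05 and 0.24. Smad6, an inhibitory SMAD that BMPs induce, was 11.4 and 11.4 FPKM (A-LMSC), 21.1 and 16.3 FPKM (PM-LMSC) and 16.0 and 12.4 FPKM (M-LMSC). Atoh8, a helix-loop-helix factor downstream of BMP receptors in vessels, was 13.0 and 9.18 FPKM (A-LMSC), 20.4 and 19.5 FPKM (PM-LMSC) and 11.4 and 14.6 FPKM (M-LMSC). Both had their highest mean in PM-LMSCs, as did Id1, Id2 and, by a smaller margin, Id3. The other tested genes of this list (Bambi, Id4, Smad7 and Msx1) did not share this. The log2 differences of PM-LMSCs over A-LMSCs were -0.13 for Bambi, -0.11 for Id4, -0.03 for Smad7 and 0.14 for Msx1. Those of M-LMSCs over A-LMSCs were -0.44 for Bambi (standard error 0.14, limma adjusted p = 0.247), 0.32 for Id4, 0.05 for Smad7 and 0.26 for Msx1. The log2 differences of PM-LMSCs over A-LMSCs were 0.66 for Smad6 (standard error 0.17, limma adjusted p = 0.449) and 0.81 for Atoh8 (standard error 0.19, limma adjusted p = 0.420), so neither passed. Smad7, which activins and TGF-β also induce, was 8.23 to 12.4 FPKM with PM-LMSCs overlapping A-LMSCs.

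**Figure D4:**
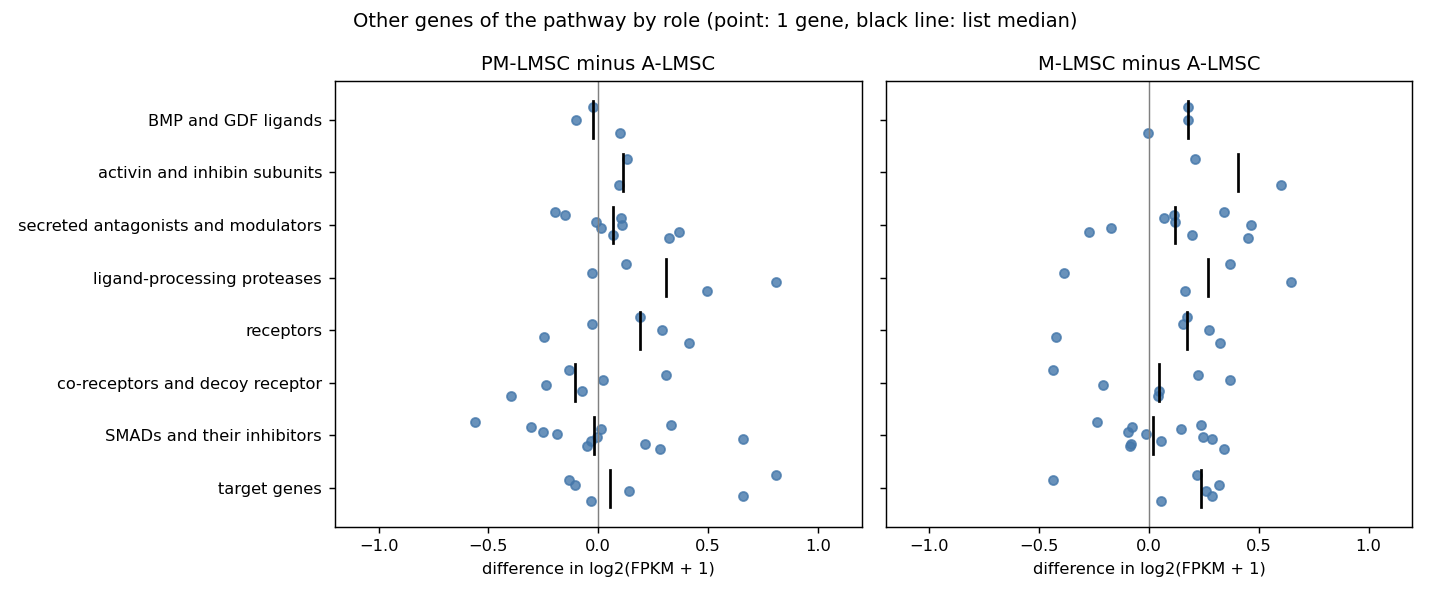
Differences in log2(FPKM + 1) of the tested genes of 8 lists, by role (horizontal axis, 1 point per gene, black line for the list's median), for PM-LMSCs and M-LMSCs over A-LMSCs. The points spread to both sides of 0 in PM-LMSCs (24 higher and 20 lower), and 31 of 44 lie above 0 in M-LMSCs, beside medians over all tested genes of 0.01 and 0.03.

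The 5 genes whose pattern over the 6 libraries was most like Gdf6, of 10278 compared, were Col4a1 (Pearson r = 0.996 on the log2 scale), Shroom2 (0.991), Rsph3a (0.991), Ppp1r3d (0.986) and Ei24 (0.985). Col4a1, a chain of basement membrane collagen, stood at 225.0 and 210.3 FPKM (A-LMSC), 331.6 and 337.8 FPKM (PM-LMSC) and 359.8 and 379.5 FPKM (M-LMSC), with no overlap between stages. Shroom2, an actin-binding protein, had means of 0.965 ± 0.0667 FPKM (A-LMSC), 1.72 ± 0.152 FPKM (PM-LMSC) and 2.11 ± 0.0580 FPKM (M-LMSC) (SD, n = 2). These are the top of many comparisons over 6 points and carry no test.

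The replicate number, which did not enter the choice of genes, moved with several of them. Replicate 1 was above replicate 2 at all 3 stages in 5 of the 10 (Inhba, Grem1, Bmpr1a, Id1 and Id2), beside 26.0% of tested genes. Averaged over the stages, FPKM + 1 was 1.63-fold higher in replicate 1 for Inhba, 1.69-fold for Grem1, 1.28-fold for Bmpr1a, 1.25-fold for Id1 and 1.22-fold for Id2. For Gdf6 and Id3 the same ratio was 1.02 and 0.951. In limma's test of the replicate number with the stage as a block, chosen after the values were seen, 0.0486% of tested genes passed and none of the 9 did, while 5 of the 9 and 2319 of all genes (22.6%) had an unadjusted p under 0.05. Inhba differed by 0.70 (standard error 0.11, limma adjusted p = 0.118) and Grem1 by 0.76 (standard error 0.21, limma adjusted p = 0.130). The summed mesothelial markers were higher in replicate 2 than in replicate 1 at each stage, by the values given above, and their part in these differences was not tested.

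**Figure D5:**
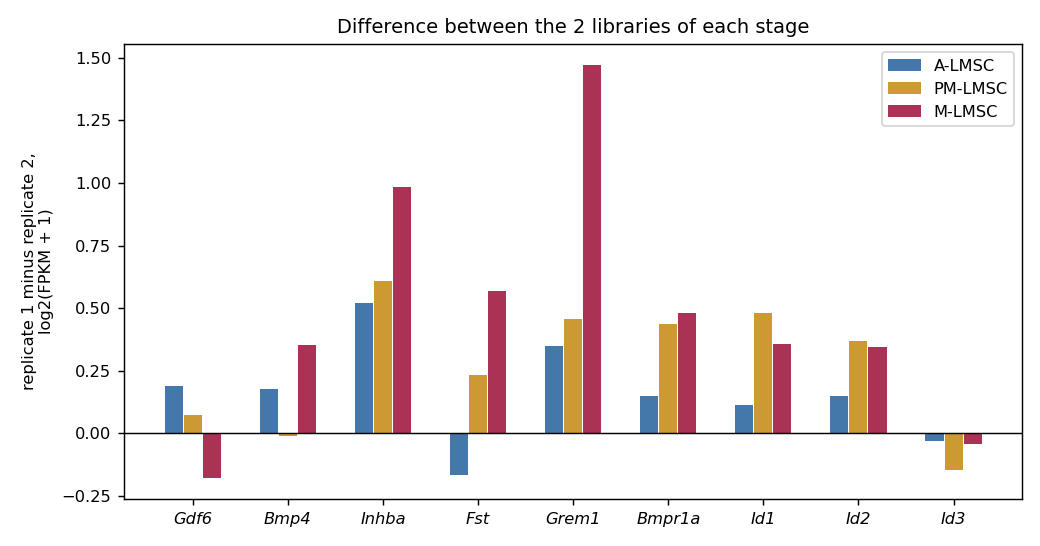
Replicate 1 minus replicate 2 in log2(FPKM + 1) within each stage for the 9 genes in the fit (1 bar per stage, vertical axis through 0). All 3 bars are above 0 for Inhba, Grem1, Bmpr1a, Id1 and Id2, up to 1.47 for Grem1 in M-LMSCs, whereas those of Gdf6 and Id3 lie between -0.18 and 0.19.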

How the data were processed

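Total RNA of 6 LMSC libraries was sequenced, 2 per stage. The authors deposited 1 FPKM value per gene and library for 34745 genes. The submitters' processing notes name mm10, TopHat and TopHat2 2.0.9, and the counter and annotation are not given in the sources used here. FPKM divides a fragment count by transcript length and library total, so the counting error of a value cannot be read from it. FPKM summed to 258249 to 271408 per library. Low values were whole multiples of 1 fragment in 49.1% to 50.3% of cases (within 0.05 fragments), too few to recover counts, and the number of libraries and their depth limit the precision. Zeros were taken as listed, since mt-Co2, a gene every cell uses, was at 0 in all 6 libraries.

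The 10279 genes averaging 1 FPKM or more were fitted as log2(FPKM + 1) with limma 3.58.1 in R 4.3.3 (lmFit, eBayes with a trend, 1 mean per stage, two-sided), with Benjamini-Hochberg adjustment over all of them at 0.05. Fold changes on this scale understate those of low genes. Deviations from the stage mean correlated between libraries of the same number at 0.238 (A and PM), 0.307 (A and M) and 0.491 (PM and M), so the numbers, which the labels do not explain, were taken to pair libraries, and values from the replicate block are given where it changed a call or moved a count by over 1.5 times. With 2 libraries per stage, renumbering a stage only reverses the sign of its correlations, so they cannot show that libraries of the same number are pairs. This pairing was inferred from these same data and is not part of the stated design. The smaller standard errors and the passes with the block depend on it.

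Named genes were the 10 genes, the listed pathway genes that passed in any contrast with or without the block, the 3 most abundant of each list, the 5 most like Gdf6 and the marker lists. The remaining tested target genes were named as well. The genes, lists and tests were chosen with earlier results of these data known. Alternatives were a pseudocount of 0.1, no filter on low values, quantile normalization, centring, only the libraries compared, the block, and each library left out in turn. A correction for GC content and exon length with the block, and the test of the replicate number, were added after the data were seen. Positions are from GENCODE M21 (GRCm38), which held 34267 of the identifiers. Copies were searched with blastn 2.17.0 (95% identity, 200 bases). Python 3.11.15, pandas 2.3.3 and numpy 2.4.6 were used.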

Additional observations from a re-analysis of the deposited data

How the results depend on the processing

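With 2 libraries per stage, counts of genes that passed moved widely. Over all tested genes, 4 passed for PM-LMSCs against A-LMSCs, and 1 did with no filter on low values, 21 with only the libraries compared, 30 with the replicate block and 1 to 28 with 1 library left out. For M-LMSCs against A-LMSCs 7 passed, and 3 did with no filter, 1 with only the libraries compared, 403 with the block, 305 with the block and the GC and length correction and 1 to 90 with 1 library left out. For M-LMSCs against PM-LMSCs 3 passed, and 43 did with the block, 6 with the block and the correction and 2 to 25 with 1 library left out. For both later stages against A-LMSCs 13 passed, and 0 did with no filter, 7 with centred libraries, 211 with the block, 68 with the block and the correction and 0 to 93 with 1 library left out. Of the 44 other pathway genes, the 0 that passed for M-LMSCs against A-LMSCs became 1 with the block and 1 with the block and the correction, and for both later stages 1 with the block and 0 to 1 with 1 library left out (1 without M-LMSC replicate 1). Of the 9 genes in the fit, the block added Gdf6 for M-LMSCs against A-LMSCs, and it changed no other call among the 9 and the 44. With no filter on low values 0 genes passed for both later stages against A-LMSCs, so the pass of Gdf6 in that contrast was lost. The cause of these differences was not tested. Of the 459 alternative values of the stage differences of the 9 genes in the fit, 426 moved by less than 1 standard error and 33 by more. Dropping the filter, using only the libraries compared, adding the block, or leaving out a library of a stage not compared cannot change a difference. The 426 thus hold values that were fixed in advance, as do the values whose sign stayed the same. The sign changed in 25 values, and in 0 for Gdf6, whose differences with 1 library left out were 0.76 to 0.95 in PM-LMSCs and 1.00 to 1.19 in M-LMSCs over A-LMSCs. As the Gdf6 libraries of the stages did not overlap, leaving out a library could not change a sign, so nothing is read from that 0. Of the 5 genes most like Gdf6, 3 had a mean of at least 5 FPKM and so remained when lower genes were left out.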
